A study of Homo sapiens with 7 samples.

Results

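The unfolded protein response and the integrated stress response were followed through 40 genes, chosen by symbol as ER chaperones and folding enzymes (16 genes), components of ER-associated degradation (ERAD, 8 genes), sensors and transcription factors of the response (6 genes) and targets of the transcription factor ATF4 (10 genes). All 40 were found among the 66025 genes of the count table, and all 40 were among the 22926 genes with enough counts to be tested. RNA-seq measured their expression in β-like cells that express insulin and had been flow-sorted after stage 6 of pancreatic differentiation of H1, an established human embryonic stem cell line. The cells had been transduced with lentivirus for a doxycycline (Dox)-inducible shRNA and selected with puromycin, and whether a line was a clone or a pool was not stated in the sources used here. Libraries labelled iKD2 Dox+ (a, b and c, n = 3) carried an shRNA against METTL14, a subunit of the complex that writes N6-methyladenosine on mRNA, and received Dox. Libraries labelled iKD2 Dox- (b and c, n = 2) came from that line without Dox, and those labelled iSCR Dox+ (a and b, n = 2) from a line with a scramble shRNA under Dox. The iKD2 Dox+ group entered both comparisons of the knockdown and iSCR Dox+ entered the comparison of both controls as well, so that the 3 comparisons share libraries.

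Secreted proteins fold in the endoplasmic reticulum (ER), and β-cells, which export large amounts of insulin, are known for a heavy folding load. When unfolded proteins build up, the sensors IRE1, PERK and ATF6 raise the supply of chaperones and of the ERAD machinery, which returns misfolded proteins to the cytosol for destruction. PERK and related kinases also phosphorylate the initiation factor eIF2, which slows translation in general while the ATF4 message is translated more, and ATF4 switches on genes for amino acid supply and redox balance and, with CHOP, for cell death. Abundance of mRNA, as measured here, shows neither the cleavage of ATF6 nor the splicing of XBP1 nor the translation of ATF4.

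Total estimated counts were 14875429 to 20639156 per library. METTL14, the targeted gene, had levels of 18.7, 16.3 and 49.1 CPM (counts scaled by TMM to a common library size) in iKD2 Dox+, 39.4 and 22.6 CPM in iKD2 Dox-, and 36.1 and 32.2 CPM in iSCR Dox+. Values of a group are always listed in the order of its letters. Of all 7 libraries, the one labelled iKD2 Dox+ c had the most METTL14, and the log2 fold changes were -0.14 (SE 0.63, edgeR adjusted p = 1) against iKD2 Dox- and -0.28 (SE 0.63, adjusted p = 0.963) against iSCR Dox+. Each of 13 β-cell markers was detected in every library. Their summed level was 25774 to 30118 CPM in iKD2 Dox+ and 34231 to 40496 CPM in the 4 control libraries. INS and CHGA made up 91.7% to 94.8% of that sum, and of the 13 markers 3 had a positive log2 fold change in iKD2 Dox+ against iKD2 Dox- and 5 against iSCR Dox+. The summed level of 11 ductal and acinar markers was 896 to 997 CPM against 476 to 625 CPM, with 2 or 3 of them at 0 in iKD2 Dox+ libraries and 2 to 5 in the controls. That of 8 mesenchymal markers was 714 to 1133 CPM against 298 to 696 CPM, with 1 of them at 0 in iSCR Dox+ a. The sum of 8 alpha, delta and gamma cell markers was 10370 to 14057 CPM against 13512 to 17432 CPM. For 5 enterochromaffin markers it was 1070 to 1209 CPM against 1008 to 1494 CPM, and both of these sums overlapped the controls. The sums of the β-cell, ductal and acinar, and mesenchymal markers moved with iKD2 Dox+. KRT19 and SOX9 made up most of the ductal and acinar sum in every library, and COL3A1 most of the mesenchymal sum. COL3A1 itself overlapped the controls (480 to 880 against 159 to 504 CPM), as did KRT7. Against iKD2 Dox-, 8 of 9 tested ductal and acinar markers and 7 of 8 mesenchymal markers had a positive log2 fold change, and against iSCR Dox+ 8 and 8. The part of any of these markers in the values below was not tested. In bulk samples, fewer cells of a type and less RNA per cell cannot be told apart.

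The promoters of the genes that lead the set are shown because the ER stress response element was defined on such promoters. RefSeq promoters (GRCh38.p14, 250 bases before to 50 after the start) were available for 36 of the 40 genes. Those without an entry were DERL1, DERL3, PDIA3 and SLC7A11. The ER stress response element (ERSE) was searched on both strands as CCAAT and CCACG with 9 bases between them. These letters were present in 27 of 35116 promoters (0.0769%), among them promoters of 8 of the 36 genes: 7 chaperone or folding genes (HSPA5, HSP90B1, CALR, CANX, CRELD2, ERO1B and PDIA6) and XBP1. Here and below, shares of all promoters count promoter entries, whereas members are counted as genes with a match in any of their entries. The units of these counts therefore differ. The promoters of HSPA5 (BiP, chr9:125241294-125241593, minus strand), HSP90B1 (GRP94, chr12:103930160-103930459, plus strand, with a pair of matches) and CALR (calreticulin, chr19:12938359-12938658, plus strand) follow, with the ERSE letters in capitals (CGTGG and ATTGG where the match is on the other strand).
HSPA5 promoter: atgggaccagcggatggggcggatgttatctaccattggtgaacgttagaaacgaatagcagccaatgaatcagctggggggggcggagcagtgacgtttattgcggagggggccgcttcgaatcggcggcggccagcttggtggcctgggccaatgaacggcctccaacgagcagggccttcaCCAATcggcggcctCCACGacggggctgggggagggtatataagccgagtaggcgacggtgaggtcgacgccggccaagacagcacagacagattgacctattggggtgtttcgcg
HSP90B1 promoter: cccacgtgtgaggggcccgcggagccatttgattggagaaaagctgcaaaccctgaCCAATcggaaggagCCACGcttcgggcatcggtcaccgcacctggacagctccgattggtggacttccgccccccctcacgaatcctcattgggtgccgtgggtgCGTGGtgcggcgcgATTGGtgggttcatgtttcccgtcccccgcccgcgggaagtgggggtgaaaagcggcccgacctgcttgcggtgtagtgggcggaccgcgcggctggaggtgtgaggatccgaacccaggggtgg
CALR promoter: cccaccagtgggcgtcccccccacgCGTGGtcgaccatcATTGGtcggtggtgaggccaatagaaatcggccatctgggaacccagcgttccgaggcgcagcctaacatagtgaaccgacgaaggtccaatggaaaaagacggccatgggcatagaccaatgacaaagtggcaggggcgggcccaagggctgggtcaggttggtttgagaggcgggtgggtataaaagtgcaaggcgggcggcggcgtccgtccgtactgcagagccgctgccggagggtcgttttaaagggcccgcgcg
The match begins 66 bases before the start in HSPA5, 194 and 89 bases before it in HSP90B1 and 225 bases before it in CALR. CCAAT alone, which every ERSE match includes, was present in 34.6% of all promoters and in all 15 chaperone and folding genes with an entry.

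Further matches of ERSE and those of related elements are shown as the matched letters with up to 12 bases on either side, each on the strand of its gene, so that a match on the other strand reads as its reverse complement. ERSE-II (ATTGG and CCACG with 1 base between them) was present in 19 promoters (0.0541%), of which HERPUD1, HYOU1 and SDF2L1 were members. UPRE (TGACGTGG) was present in 256 promoters (0.729%), HYOU1 among them, where it overlaps the more distant of the ERSE-II matches of that gene. The C/EBP-ATF response element (CARE), at which ATF4 is known to bind, was searched as TGATG and AA with 1 base between them. It was present in 1270 promoters (3.62%) and in 4 of the 36, namely the ATF4 targets ASNS, CHAC1 and SLC3A2, and HERPUD1.
XBP1 ERSE: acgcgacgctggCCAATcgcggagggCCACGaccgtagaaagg
CRELD2 ERSE: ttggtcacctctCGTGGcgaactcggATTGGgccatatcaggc
ERO1B ERSE: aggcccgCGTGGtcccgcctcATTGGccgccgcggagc
CANX ERSE: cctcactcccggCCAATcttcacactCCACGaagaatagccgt
PDIA6 ERSE: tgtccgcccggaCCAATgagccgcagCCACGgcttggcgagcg
HERPUD1 ERSE-II: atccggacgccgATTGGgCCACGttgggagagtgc
SDF2L1 ERSE-II: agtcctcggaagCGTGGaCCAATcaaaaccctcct
HYOU1 ERSE-II, the nearer match: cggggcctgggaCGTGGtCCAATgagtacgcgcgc
HYOU1 ERSE-II, the more distant match: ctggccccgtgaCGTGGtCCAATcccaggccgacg
HYOU1 UPRE: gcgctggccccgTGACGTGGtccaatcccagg
ASNS CARE: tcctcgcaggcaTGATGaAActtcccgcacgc
CHAC1 CARE: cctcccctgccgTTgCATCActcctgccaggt
SLC3A2 CARE: gtgcaggactccTTaCATCAgctcc
HERPUD1 CARE: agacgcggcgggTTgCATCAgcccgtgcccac
A match describes these letters only and is not evidence that a factor binds there.

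None of the 40 genes passed an adjusted p of 0.05 by edgeR's quasi-likelihood test in any comparison. Among all genes tested, 0.0393% passed for iKD2 Dox+ against iKD2 Dox-, 0.0262% for iKD2 Dox+ against iSCR Dox+ and 0.0131% for iKD2 Dox- against iSCR Dox+. At an unadjusted p under 0.05, 1 member passed in the first comparison (HSP90B1; 3.72% of all genes), 2 in the second (CALR and ATF4; 6.72%) and 1 in the third (ATF4; 4.45%). With a change over 1.5-fold added, which is the criterion the study used for these libraries, the counts were 0, 1 and 1 (ATF4 both times), and the shares of all genes were 3.55%, 6.52% and 4.38%. Without iSCR Dox+ b the counts against iSCR Dox+ were 4 and 5 (11.1% and 9.33% of all genes in those fits), and without iSCR Dox+ a they were 2 and 3 (7.48% and 5.69%). With all libraries, these counts are no larger than the shares among all genes would give in 40 genes. P-values here measure the spread between these libraries, and the labels do not say whether each came from its own culture. The DESeq2 Wald test, an alternative that called 1.09%, 3.87% and 2.1% of the genes it adjusted in the same order, called 0 members in the first comparison and ATF4 alone in the other two. Limma voom called 0 members in each.

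**Figure D1:**
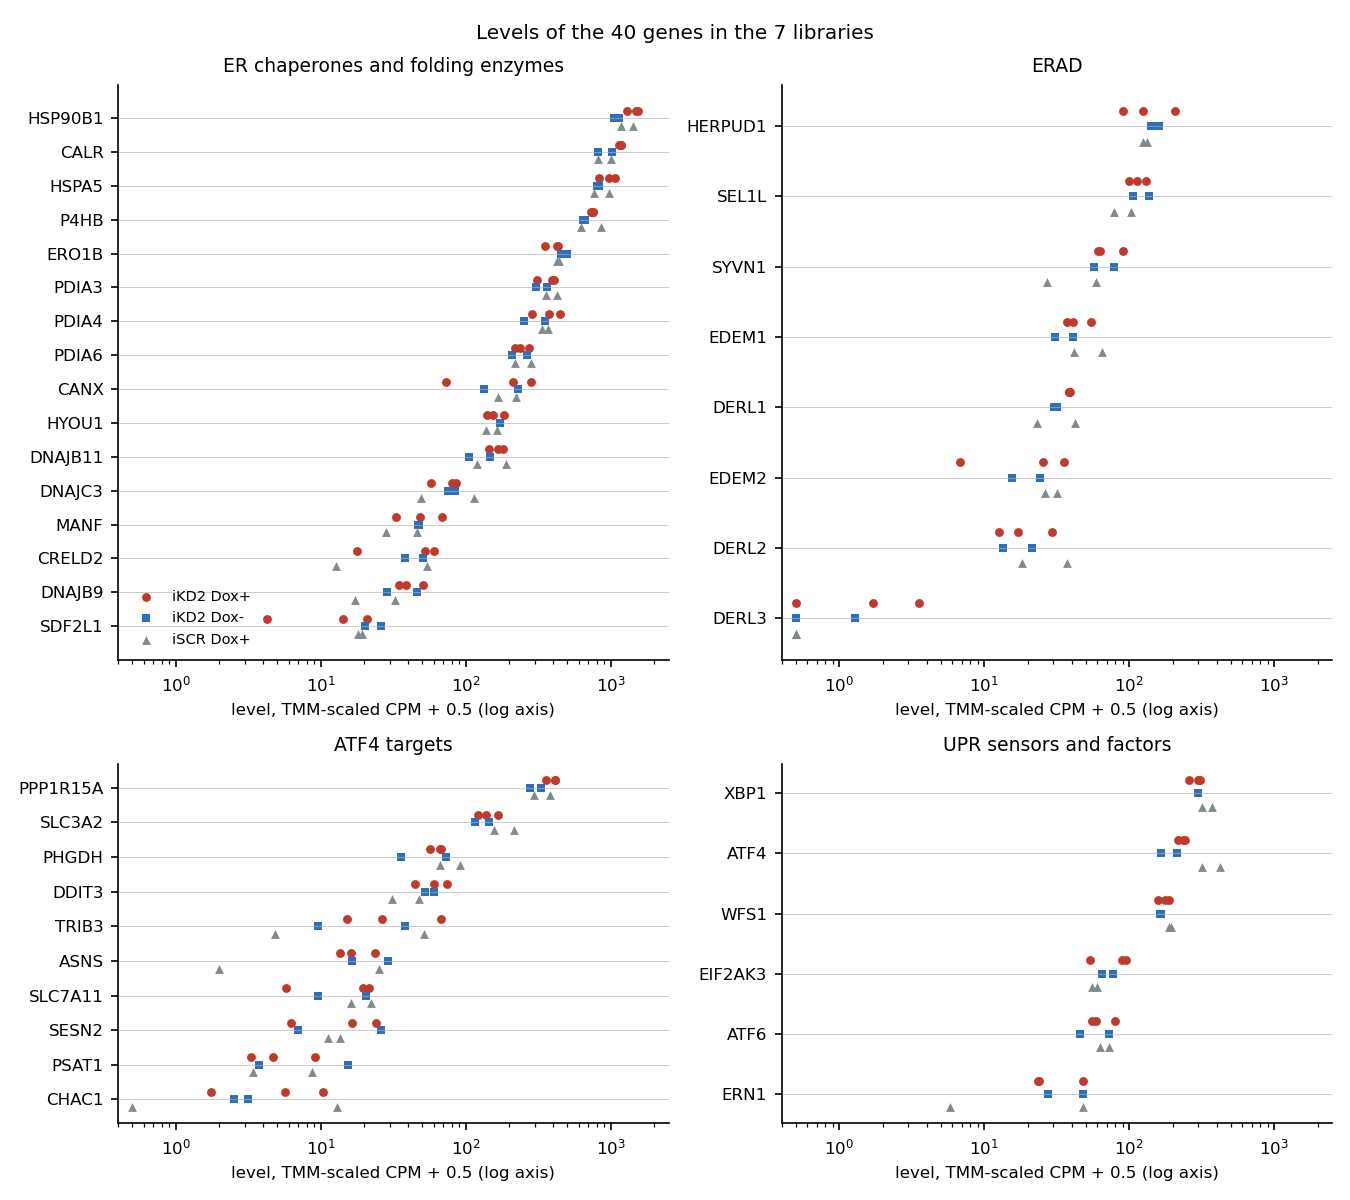
Level of each of the 40 genes in each library, as TMM-scaled CPM plus 0.5 on a log axis, by role and in order of mean level. The most abundant chaperones and folding enzymes reach 1529 CPM and lie close together between groups. Several ATF4 targets below 100 CPM spread over more than 4-fold between libraries of 1 group, as do SDF2L1 and CRELD2 of the chaperone role.

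ER chaperones and folding enzymes carried most of the reads of the set and stayed close between groups. Together the 40 genes took 0.721% to 0.869% of the reads of a library, and the 16 chaperone and folding genes took 72.5% to 76.6% of these. Their summed level was 6634, 5951 and 6648 CPM in iKD2 Dox+, 5802 and 5257 CPM in iKD2 Dox-, and 6068 and 5767 CPM in iSCR Dox+. The iKD2 Dox+ sums exceeded those of iKD2 Dox- and overlapped those of iSCR Dox+. The median log2 fold change of the 16 genes was 0.11 against iKD2 Dox- and 0.08 against iSCR Dox+, and -0.06 between both controls, where the medians of all genes tested were 0.01, 0.08 and 0.04.

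HSP90B1 encodes GRP94, the ER member of the HSP90 family, which folds a limited range of clients (chr12:103930107-103953645 in GENCODE 29 on GRCh38). Its level was 1484, 1294 and 1529 CPM in iKD2 Dox+, 1132 and 1054 CPM in iKD2 Dox-, and 1413 and 1173 CPM in iSCR Dox+. Every iKD2 Dox+ value exceeded both iKD2 Dox- values, while iSCR Dox+ overlapped iKD2 Dox+ and lay above iKD2 Dox-. The log2 fold change against iKD2 Dox- was 0.39 (SE 0.16, 95% interval 0.07 to 0.72, unadjusted p = 0.0211 by edgeR, adjusted p = 1). Between both controls it was -0.24 (SE 0.17, adjusted p = 0.829), the smallest p of the role in that comparison. The small RNA gene MIR3652 lies on the same strand within HSP90B1, so that reads of the pair are not fully separable.

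CALR encodes calreticulin, a lectin chaperone that also stores calcium (chr19:12938578-12944489). Its level was 1168, 1145 and 1183 CPM in iKD2 Dox+, 1026 and 809.6 CPM in iKD2 Dox- and 1001 and 819 CPM in iSCR Dox+. It was the one member whose 3 iKD2 Dox+ libraries all lay beyond the 4 control libraries, which held for 6.3% of all genes tested. With DESeq2 size factors in place of TMM a second member, ERO1B, joined it on the lower side. The log2 fold change of CALR was 0.36 against iSCR Dox+ (SE 0.17, 95% interval 0.01 to 0.71, unadjusted p = 0.0467, edgeR adjusted p = 0.699). HSPA5, which encodes BiP, the HSP70 of the ER and the usual readout of ER stress, had levels of 1065, 824 and 976 CPM in iKD2 Dox+, 828 and 802 CPM in iKD2 Dox- and 765 and 970 CPM in iSCR Dox+. Its 3 groups overlapped, and the 95% intervals of its log2 fold change were -0.14 to 0.59 against iKD2 Dox- and -0.23 to 0.50 against iSCR Dox+.

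Among the protein disulfide isomerases, which form and rearrange disulfide bonds such as those of insulin, P4HB ranged from 620 to 851 CPM over the 7 libraries, PDIA3 from 304 to 423 CPM, PDIA4 from 251 to 448 CPM and PDIA6 from 207 to 280 CPM. ERO1B, an oxidase of these enzymes that is abundant in islets, had a range of 350.4 to 494 CPM, and its iKD2 Dox+ libraries (350.4, 425 and 431 CPM) lay below those of iKD2 Dox- (494 and 452 CPM). CANX, the membrane-bound partner of calreticulin, ranged from 73.1 to 281 CPM, and both extremes were iKD2 Dox+ libraries. The BiP cochaperones DNAJB11 (105 to 188 CPM), DNAJC3 (48.6 to 113 CPM) and DNAJB9 (16.6 to 50.3 CPM) and the exchange factor HYOU1 (137 to 182 CPM) all overlapped between iKD2 Dox+ and iKD2 Dox-. DNAJB9 and CALR were the chaperones with iKD2 Dox+ above iSCR Dox+ in every library. SDF2L1, a partner of DNAJB11, spanned 3.77 to 25.4 CPM, CRELD2 12.2 to 60.2 CPM and MANF, a secreted stress-response factor, 27.5 to 68.2 CPM. SDF2L1 and CRELD2 had the widest relative ranges of the role.

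No ERAD gene had an unadjusted p under 0.05 in any comparison. Their summed level was 420, 445 and 484 CPM in iKD2 Dox+, 409 and 471 CPM in iKD2 Dox- and 366 and 438 CPM in iSCR Dox+, with all groups overlapping. HERPUD1, which helps to assemble the ligase complex (chr16:56932048-56944863), had levels of 89.6, 125 and 207 CPM in iKD2 Dox+, 140 and 159 CPM in iKD2 Dox- and 125 and 133 CPM in iSCR Dox+. The lowest and the highest value were both iKD2 Dox+. SEL1L, the adaptor of the ligase (chr14:81471549-81533861), had 131, 113 and 99.1 CPM in iKD2 Dox+, 106 and 136 CPM in iKD2 Dox-, and 102 and 78.5 CPM in iSCR Dox+, again overlapping between iKD2 Dox+ and each control.

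The ligase itself, SYVN1 (HRD1), ranged from 26.7 to 89.6 CPM and had the smallest p of the role against iSCR Dox+, with a log2 fold change of 0.74 in iKD2 Dox+ (SE 0.44, edgeR adjusted p = 0.699) and 0.66 in iKD2 Dox- (SE 0.47, adjusted p = 0.829). These values were 1.40 and 1.33 without iSCR Dox+ b, and 0.28 and 0.21 without iSCR Dox+ a. Its reads may include some of FAU, which lies on the same strand, although the counts of SYVN1 were whole numbers in every library. EDEM1, which trims the glycans of misfolded proteins, had the smallest p between iKD2 Dox+ and iKD2 Dox- (log2 fold change 0.31, SE 0.49, adjusted p = 1). Its relative EDEM2 ranged from 6.28 to 34.8 CPM. Of the derlins, which help proteins to leave the ER membrane, DERL1 lay between 22.5 and 41.9 CPM and DERL2 between 12.2 and 36.9 CPM. DERL3 was near the limit of detection, at 0, 3.06 and 1.2 CPM in iKD2 Dox+, 0.78 and 0 CPM in iKD2 Dox- and 0 in both iSCR Dox+ libraries. A bound for iSCR Dox+ was set at the 3 counts that a count of 0 allows over the group. The pooled level of DERL3 was 14.1-fold above this bound in iKD2 Dox+ and 4.17-fold above it in iKD2 Dox-. These values cover counting error only and give no minimum difference between groups, as 1 library of each iKD2 group was also at 0. The edgeR intervals of its log2 fold change against iSCR Dox+ included no change. They were -1.99 to 17.2 in iKD2 Dox+ and -2.99 to 14.5 in iKD2 Dox-. The median log2 fold change of the role was 0.18 against iKD2 Dox- and 0.18 against iSCR Dox+, and 0.07 between both controls, and the medians against iSCR Dox+ were the same with DERL3 at its bound.

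**Figure D2:**
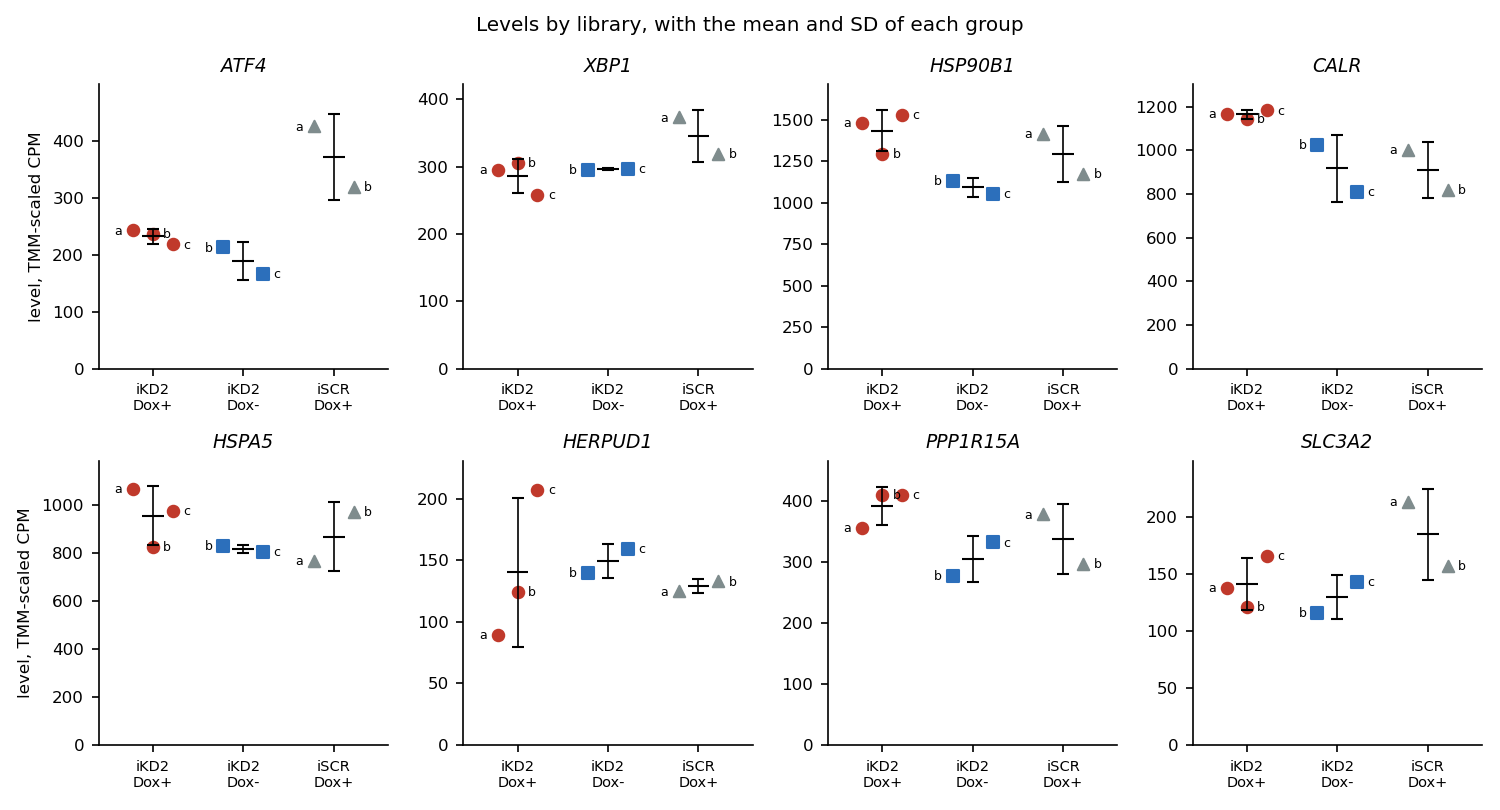
Levels of 8 genes in TMM-scaled CPM, with a point for each library (labelled a, b or c) and the mean and SD of each group (n = 3, 2 and 2). ATF4 lay at 318 and 425 CPM in iSCR Dox+ and between 166 and 242 CPM in the 5 iKD2 libraries, and CALR lay at 1145 to 1183 CPM in iKD2 Dox+ and at 809.6 to 1026 CPM in the controls.

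Of the sensors and factors, ATF4 had the smallest p in every comparison, and its levels separated the iSCR line from the iKD2 line. ATF4 (chr22:39519695-39522685), the transcription factor of the integrated stress response, had levels of 242, 235 and 218 CPM in iKD2 Dox+, 212 and 166 CPM in iKD2 Dox-, and 425 and 318 CPM in iSCR Dox+. Both iSCR Dox+ libraries lay above all 5 iKD2 libraries. The log2 fold change against iSCR Dox+ was -0.68 in iKD2 Dox+ (SE 0.23, 95% interval -1.16 to -0.21, unadjusted p = 0.00713 and adjusted p = 0.591 by edgeR). It was -0.97 in iKD2 Dox- (SE 0.26, 95% interval -1.51 to -0.44, unadjusted p = 0.0010, adjusted p = 0.637). Between iKD2 Dox+ and iKD2 Dox- it was 0.29 (SE 0.23, 95% interval -0.19 to 0.78, adjusted p = 1), and the 2 groups did not overlap. The iSCR Dox+ libraries differ from iKD2 Dox- in the line and in Dox at once, which cannot be told apart here.

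The call for ATF4 depended on the test. DESeq2 gave adjusted p = 0.0208 in iKD2 Dox+ and adjusted p = 8.93e-04 in iKD2 Dox- against iSCR Dox+, with log2 fold changes of -0.71 and -1.01. Without iSCR Dox+ b, edgeR gave adjusted p = 0.0131 for iKD2 Dox- and 0.0796 for iKD2 Dox+, and without iSCR Dox+ a it gave 0.608 and 0.804. Over 13 alternatives the log2 fold change stayed between -0.87 and -0.46 for iKD2 Dox+ and between -1.17 and -0.75 for iKD2 Dox-.

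XBP1, whose spliced form is the factor downstream of IRE1 (chr22:28794555-28800597), had levels of 295, 306 and 258 CPM in iKD2 Dox+, 295 and 297 CPM in iKD2 Dox- and 373 and 319 CPM in iSCR Dox+. As for ATF4, both iSCR Dox+ libraries lay beyond all 5 iKD2 libraries, which held for 11.7% of all genes tested, and the log2 fold changes of XBP1 were within their error (-0.27, SE 0.21, edgeR adjusted p = 0.752 in iKD2 Dox+, and -0.22, SE 0.23, adjusted p = 0.952 in iKD2 Dox-). WFS1, which encodes wolframin, an ER membrane protein that restrains ER stress in β-cells, was the steadiest member, at 156 to 194 CPM over all libraries. The sensor genes themselves were low. EIF2AK3 (PERK) ranged from 53.5 to 94.4 CPM, ATF6 from 45.0 to 78.7 CPM and ERN1 (IRE1) from 5.28 to 47.4 CPM, where the lowest value was iSCR Dox+ b. The median log2 fold change of the role was 0.11 against iKD2 Dox-, -0.10 against iSCR Dox+ and -0.21 between both controls.

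Among the 10 ATF4 targets, both directions were present. Against iSCR Dox+, where ATF4 was lower in all iKD2 libraries, the log2 fold changes of the targets were positive for 5 and negative for 5 in iKD2 Dox+ (median 0.07) and positive for 4 and negative for 6 in iKD2 Dox- (median -0.20), and none had an unadjusted p under 0.05. The latter median was 0.26 by limma voom, 0.23 with a replicate block and 0.066 without iSCR Dox+ b, so that no direction is given for it. The summed level of the role was 747, 751 and 749 CPM in iKD2 Dox+, 582 and 679 CPM in iKD2 Dox- and 777 and 669 CPM in iSCR Dox+. The iKD2 Dox+ libraries lay above iKD2 Dox- and inside the range of iSCR Dox+. PPP1R15A (GADD34), which directs the removal of phosphate from eIF2 (chr19:48872392-48876057), was the most abundant of them, at 355, 409 and 410 CPM in iKD2 Dox+, 277 and 332 CPM in iKD2 Dox- and 377 and 296 CPM in iSCR Dox+. Its log2 fold change against iKD2 Dox- was 0.36 (SE 0.21, 95% interval -0.08 to 0.80, adjusted p = 1 by edgeR).

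SLC3A2, the heavy chain of several amino acid transporters (chr11:62856102-62888875), had 138, 121 and 166 CPM in iKD2 Dox+, 116 and 144 CPM in iKD2 Dox-, and 214 and 157 CPM in iSCR Dox+. Every iKD2 Dox- value was below every iSCR Dox+ value, and the log2 fold changes against iSCR Dox+ were -0.51 in iKD2 Dox- (SE 0.30, edgeR adjusted p = 0.826) and -0.39 in iKD2 Dox+ (SE 0.27, adjusted p = 0.721). DDIT3 (CHOP), which promotes cell death under lasting stress, ranged from 30.6 to 73.4 CPM, with both iSCR Dox+ values (47.2 and 30.6 CPM) inside or below the range of iKD2. PHGDH, the entry enzyme of serine synthesis, ranged from 35.1 to 91.2 CPM. The amino acid and redox genes below this level varied widely inside groups. TRIB3, a pseudokinase that is induced by CHOP, was at 66.9, 14.7 and 25.9 CPM in iKD2 Dox+ and at 4.33 and 51.3 CPM in iSCR Dox+. ASNS, asparagine synthetase, was at 1.49 and 24.6 CPM in iSCR Dox+, and CHAC1, which degrades glutathione, at 12.5 and 0 CPM there. SESN2 (5.72 to 25.5 CPM), PSAT1 (2.80 to 15.0 CPM) and SLC7A11, the cystine transporter (5.26 to 21.8 CPM), completed the role. In iSCR Dox+, library a held the higher CHAC1 and the lower TRIB3 and ASNS, so that these targets did not move together between libraries of 1 group.

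**Figure D3:**
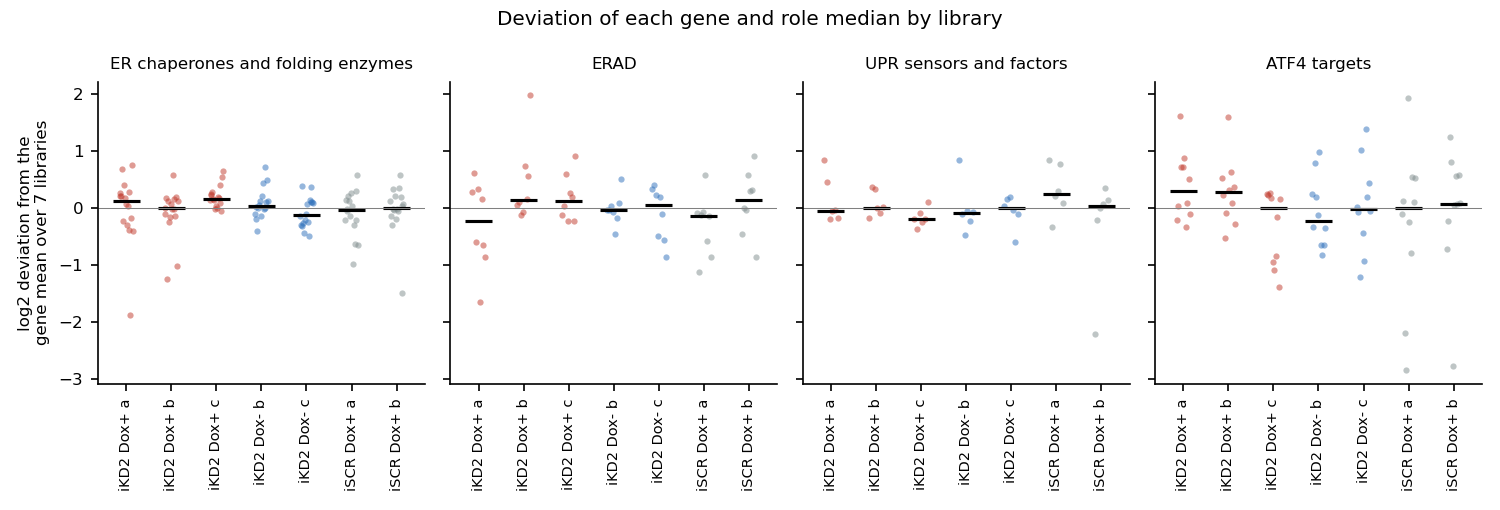
Deviation of the log2 level (TMM-scaled CPM plus 0.5) of each gene from its mean over the 7 libraries, by library and role, with the median of the role as a bar. Medians of the chaperones stay between -0.12 and 0.16 and those of the ATF4 targets between -0.22 and 0.30. Single genes deviate further, among them ATF4 targets by more than 2 in the iSCR Dox+ libraries.

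The width of the intervals followed the level of the genes. The median SD of the log2 level within groups was 0.25 for chaperones and folding enzymes, 0.46 for ERAD, 0.26 for sensors and factors and 0.92 for ATF4 targets, beside 0.95 for all genes tested. Of the 40 genes, 18 had a mean of at least 100 CPM, of which 11 were chaperone or folding genes and 2 were ATF4 targets. The 95% interval of the log2 fold change lay inside 2-fold in both directions for 21 of 40 genes against iKD2 Dox-, for 18 against iSCR Dox+ and for 15 between both controls. For all genes at 100 CPM or more this held for 75.7%, 73.3% and 68.8%, and for the 18 members at that level it held for 17, 16 and 14. For 11 of the 16 chaperone and folding genes, in each comparison, a difference of 2-fold or more was therefore outside the interval. For 8 or 9 of the 10 ATF4 targets the interval reached 2-fold, so that a difference of that size was not excluded. Across libraries, the highest level was less than 2-fold above the lowest for 18 of the 40 genes and more than 4-fold above it for 11, of which 6 were ATF4 targets.

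**Figure D4:**
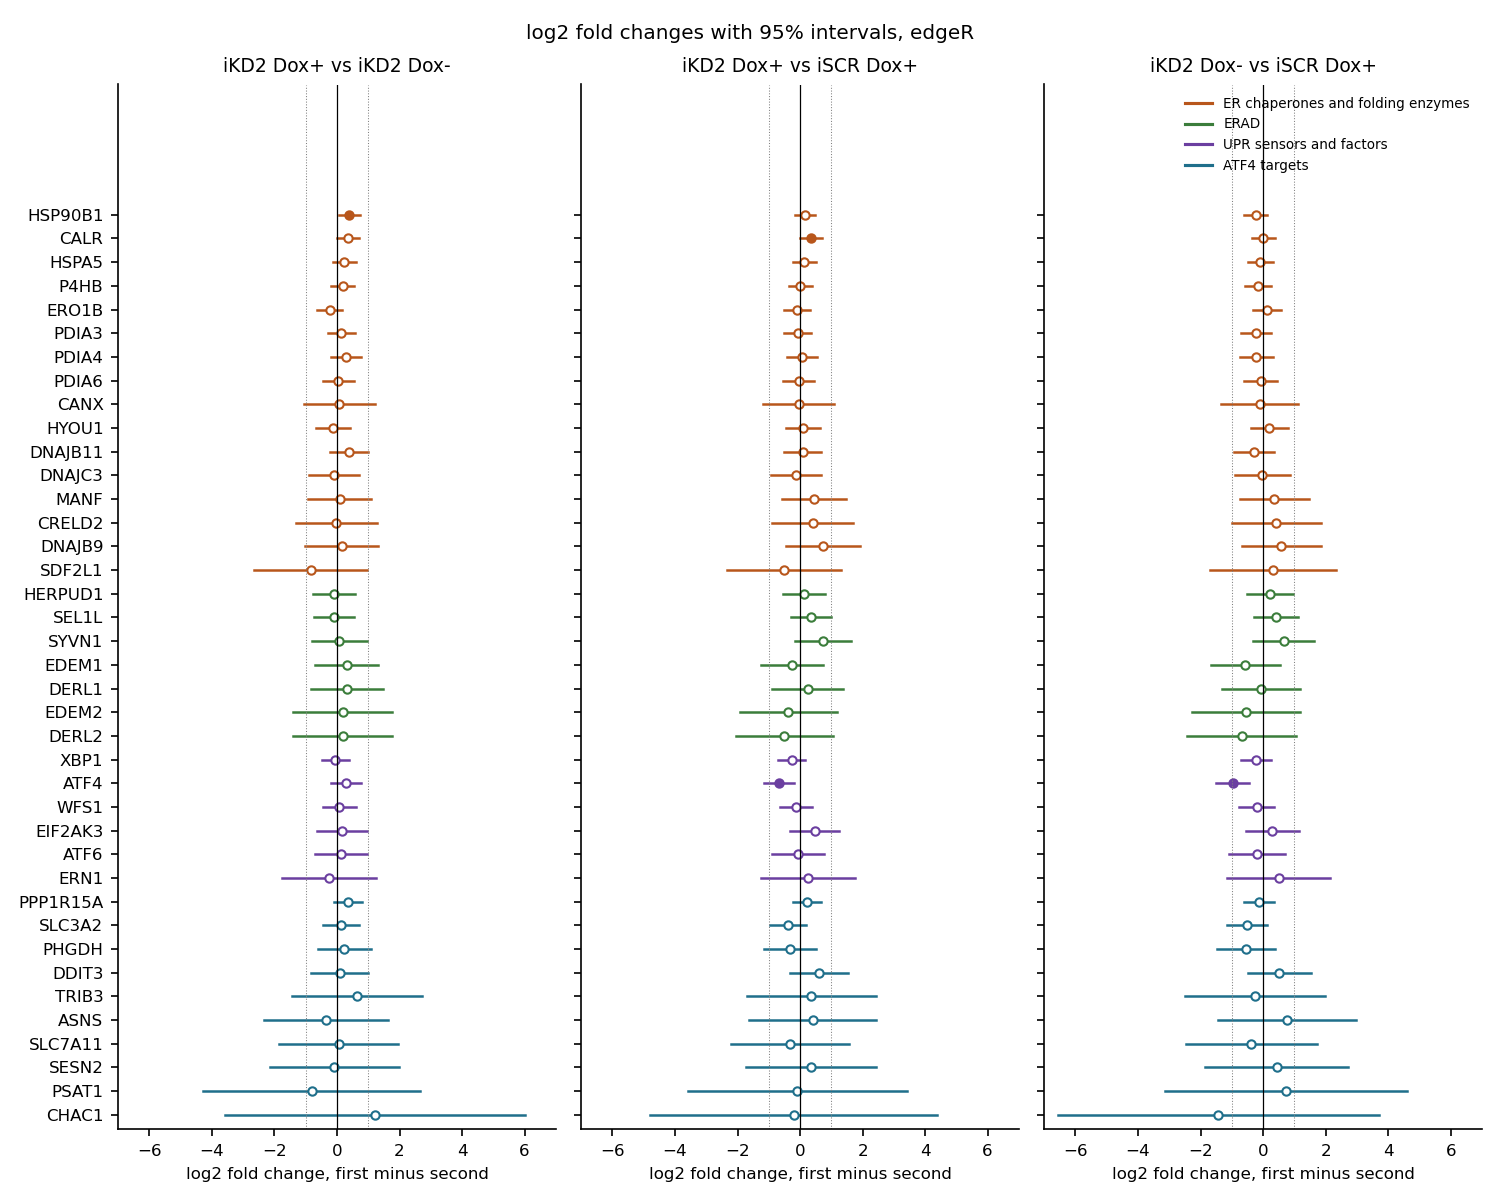
log2 fold change (first group minus second) with its 95% interval from edgeR for 39 genes in the 3 comparisons, coloured by role, with dotted lines at 2-fold. Filled points mark an unadjusted p under 0.05 (HSP90B1, CALR and ATF4), and DERL3 is left out because it was at 0 in both iSCR Dox+ libraries.

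Libraries of the groups compared did not overlap for 7 members between iKD2 Dox+ and iKD2 Dox- (6 higher and 1 lower in iKD2 Dox+), which held for 20.3% of all genes tested. They did not overlap for 5 members between iKD2 Dox+ and iSCR Dox+ (3 higher and 2 lower, 20.5% of all genes) and for 15 between iKD2 Dox- and iSCR Dox+ (8 higher and 7 lower, 33.1% of all genes). As shares of 40 genes, the counts were below those of all genes in both comparisons of iKD2 Dox+ and slightly above between the controls. On the scale of level per kilobase (mean CPM divided by the length of the longest principal transcript), CALR was highest at 537, followed by HSP90B1 at 454, P4HB at 274, HSPA5 at 228, XBP1 at 166, PPP1R15A at 148 and ATF4 at 129 CPM per kb. The sensors ATF6 at 8.44 and ERN1 at 3.99 CPM per kb and DERL3 at 0.84 CPM per kb were among the lowest.

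Other genes of the pathway were read as 4 lists of 106 genes in all, of which 104 were tested and 0 passed an adjusted p of 0.05 by edgeR in any comparison. At an unadjusted p under 0.05, 6 passed against iKD2 Dox- (3.72% of all genes), 15 in iKD2 Dox+ against iSCR Dox+ (6.72%) and 9 between both controls (4.45%). As shares of the 104 genes, these counts lay above those of all genes in every comparison, as did the counts with a fold criterion below. Among the 1877 genes with a mean of at least 100 CPM, 191, 202 and 134 passed in the same order. The excess was not tested. With a change over 1.5-fold, 4 were higher and 1 lower in iKD2 Dox+ than in iKD2 Dox- (3.55% of all genes in either direction). The higher genes were the disulfide-forming enzymes QSOX1 and PDIA5 (log2 fold changes 1.29 and 1.60), and the stress-response genes ATF3 (0.72) and DDIT4 (0.92), and the lower one was PSPH, the last enzyme of serine synthesis (-0.83). QSOX1 had the lowest adjusted p of these, 0.288, at 123, 142 and 149 CPM in iKD2 Dox+, 49.4 and 63.2 CPM in iKD2 Dox- and 109 and 91.8 CPM in iSCR Dox+. All of its iKD2 Dox+ libraries lay above the 4 controls, where 6.3% of all genes tested lay beyond them in either direction.

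Against iSCR Dox+, 10 of these genes met the same criterion as higher and 4 as lower in iKD2 Dox+ (6.52% of all genes in either direction). Those higher were DDIT4 (1.30), the amino acid carrier SLC1A5 (1.82), the methionyl-tRNA synthetase MARS1 (0.79), the glycoprotein folding sensor UGGT1 (0.86), the ERAD genes NPLOC4 (1.12) and MAN1B1 (0.93), the XBP1 RNA ligase RTCB (1.13), and the ER-bound transcription factors CREB3L1 (1.83), CREB3L2 (0.68) and CREB3L3, which was at 0 in both iSCR Dox+ libraries. CREB3L3 was also at 0 in iKD2 Dox+ c and iKD2 Dox- b, and at 12.2 and 9.48 CPM in iKD2 Dox+ a and b. The lower ones were STC2 (-1.25, edgeR adjusted p = 0.280), PSPH (-1.05), the cargo receptor LMAN1 (-0.68) and the kinase MAP3K5. MAP3K5 did not exceed 0.744 CPM in any iKD2 Dox+ library and was at 26.1 and 2.14 CPM in iSCR Dox+. STC2, a secreted protein induced through PERK, was at 75.9, 61.1 and 85.5 CPM in iKD2 Dox+, 91.0 and 129 CPM in iKD2 Dox-, and 150.4 and 203 CPM in iSCR Dox+. Its groups were ordered without overlap from iKD2 Dox+ to iSCR Dox+. Between both controls, 2 genes (UGGT1 at 0.94 and GARS1 at 0.75) met the criterion as higher in iKD2 Dox- and 6 as lower, namely QSOX1 (-0.83), PDIA5 (-1.70), DNAJC1 (-1.32), TXNDC11 (-1.15), FKBP2 (-1.75) and TXNIP (-0.73), where 4.38% of all genes met it. DDIT4 and PSPH met it in iKD2 Dox+ against both controls, with all iKD2 Dox+ libraries above the controls for DDIT4 (95.1 to 115 against 27.2 to 59.9 CPM) and below them for PSPH (45.6 to 57.6 against 83.2 to 117 CPM). SLC1A5, MARS1, CREB3L1, NPLOC4, RTCB and QSOX1 likewise lay above all controls in every iKD2 Dox+ library, and STC2, LMAN1 and MAP3K5 below them. Such separation held for 6.3% of all genes tested, and these genes had been picked by p in the same libraries.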

How the data were processed

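Total RNA was turned into libraries with a strand-keeping kit. The processing notes name fastp and Kallisto, and the study's methods name Kallisto and tximport. The deposited table holds estimated counts for each gene, unscaled for depth or length. Versions of these tools, the build, the annotation and the strand option were not given in the sources used here. Kallisto divides reads between genes, so that fractional counts (for instance in all 7 libraries for CANX, DNAJB11, ATF6, ASNS and SLC7A11) mark reads shared with other genes, and overlapping genes are uncertain.

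Counts were rounded, filtered with filterByExpr by group, TMM-scaled and fitted in edgeR 4.0.16 under R 4.3.3 (robust quasi-likelihood test, 3 groups in one fit, no covariate), with Benjamini-Hochberg adjustment over 22926 genes. Levels are TMM-scaled CPM. The fits were tested on simulated data. Coordinates and lengths are those of GENCODE 29 (GRCh38), matched by gene ID. Same-group libraries differed by far more than sampling noise, and none was left out. Alternatives were DESeq2 1.42.0, its size factors in edgeR, limma 3.58.1 (voom), no filter beyond 1 count, a replicate block, fits restricted to the 2 groups of a comparison, and each library left out. Of the authors' files, a count table was used and no column of other samples was present.

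The members and lists were chosen with earlier results of these data known. By the rule for named genes, values in every library are given for members with an unadjusted p under 0.05 in at least 1 comparison, for those with iKD2 Dox+ beyond all controls and for the 2 with the highest mean CPM of each role. A log2 fold change with SE and adjusted p is given at an unadjusted p under 0.05 or for the smallest p of a role. Other pathway genes are named past an unadjusted p of 0.05 and 1.5-fold. HSPA5 and XBP1 statistics, DERL3, TRIB3, ASNS, CHAC1, DDIT3, ERO1B, QSOX1, STC2, DDIT4 and PSPH levels by library, and the genes singled out for their range, were added after values were seen.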

Additional observations from a re-analysis of the deposited data

How the results depend on the processing

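Alternatives changed these counts and medians. Members called numbered 1 (ATF4) by DESeq2 in iKD2 Dox+ and in iKD2 Dox- against iSCR Dox+, and 0 to 1 between both controls with single libraries left out (ATF4 without iSCR Dox+ b). Members past the criterion of p and fold numbered 1 to 4 in iKD2 Dox+ against iSCR Dox+ with single libraries left out (CRELD2 and ERN1 without iSCR Dox+ a, and ATF4, ASNS, SYVN1 and TRIB3 without iSCR Dox+ b) and 1 to 5 between both controls (ATF4, CRELD2 and ERN1, or ATF4, ASNS, SLC3A2, SYVN1 and TRIB3). The log2 fold change of ATF4 was -0.71 and -1.01 by DESeq2 and -1.17 between both controls without iSCR Dox+ b. Without iSCR Dox+ b the median of all genes tested was itself 0.49 in iKD2 Dox+ and 0.30 in iKD2 Dox- (more genes passed the filter, 27661). A lone library left in a group was assumed to vary like the others. With DESeq2 size factors, 2 members (CALR and ERO1B) had iKD2 Dox+ beyond all controls.

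Role medians with single libraries left out ranged as follows against iKD2 Dox-: -0.023 to 0.39 for ATF4 targets. In iKD2 Dox+ against iSCR Dox+ they ranged from 0.012 to 0.19 for chaperones, -0.027 to 0.24 for ERAD, -0.28 to -0.053 for sensors and -0.15 to 0.24 for ATF4 targets. Between both controls they ranged from -0.058 to 0.10 for chaperones, -0.11 to 0.26 for ERAD, -0.32 to -0.094 for sensors and -0.47 to 0.066 for ATF4 targets, with 0.26 by limma voom for the last. The log2 fold change of METTL14 ranged from -0.83 to 0.30 against iKD2 Dox-, positive at 0.08 without iKD2 Dox+ a, at 0.13 without library b of that group and at 0.30 without iKD2 Dox- b. Between both controls it ranged from -0.595 to 0.21, the latter without iKD2 Dox- c. In iKD2 Dox+ against iSCR Dox+ it ranged from -0.97 without iKD2 Dox+ c to -0.015 without iKD2 Dox+ b. The cause was not tested.

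The labels do not say whether the letters pair the libraries. Deviations of same-letter libraries from their group means correlated between -0.0125 and 0.0104 over genes. In a group of 2 libraries these deviations mirror each other, so that this correlation cannot decide the question. A replicate block on the letters left 0 members past the criterion in iKD2 Dox+ against iSCR Dox+ and 2 (ATF4 and ERN1) between both controls, with ATF4-target medians of 0.39 and 0.23 and an ERAD median of -0.21 between both controls. The other counts of members called or past the criterion, and the other role medians, were the same or moved by less than their spread under each alternative. Counts at an unadjusted p under 0.05 alone also changed. Against iKD2 Dox-, for instance, there were 3 members by DESeq2 and by limma voom, and 0 without iKD2 Dox+ c. Counts of other pathway genes and of members not overlapping between 2 groups were not repeated under the alternatives.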
